A study of Mus musculus with 3 samples.

Results

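The 7 genes described here are Abcc9, Kcnj8, Kcnq5, Cacna1c, Rgs4, Rgs5 and Rgs6, which encode 4 subunits of ion channels and 3 regulators of G protein signalling. They were taken by name from the 25154 genes that the count tables list between them. Their RNA was measured in nuclei of mouse interscapular brown adipose tissue (BAT), and the question was in which classes of nuclei, and at what level, each gene was found. Nuclei came from the layer that floats after digestion of the tissue, which holds brown adipocytes and fragmented vessels, and were sorted for a DNA dye and for singlets. All mice were adult C57Bl6 of the WT genotype per the labels (male C57BL/6J in the study). There was 1 library per condition: untreated BAT, BAT after a sham operation, and denervated BAT. The study gives several mice for the untreated and denervated libraries without saying how they were combined. Denervation was on one side, by cutting the left intercostal nerves as described for the study's reporter mice, with sampling on the third day. The study also names tamoxifen for the mice of the denervated library and not for those of the untreated library, so denervation and tamoxifen cannot be told apart between these libraries. For reporter mice the study calls the intact lobe on the other side sham-operated. For protein measurements in C57BL/6J mice it names a sham-operated group beside the intact and denervated lobes. Which of these the sham library came from, and whether its mice were given tamoxifen, is not given in the sources used here. A single library per condition gives no spread between animals, so no test was made, and every interval below is a 95% interval for counting error only.

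Pericytes sit on capillaries within the basement membrane, and smooth muscle cells wrap arterioles and venules. Both set vessel tone through their membrane potential. When potassium channels open, the cell hyperpolarises, voltage-gated calcium channels close and the cell relaxes, whereas hormones and transmitters that act through G protein-coupled receptors raise calcium and constrict the vessel. RGS proteins speed the hydrolysis of GTP on G protein alpha subunits and so shorten the signal of such receptors. Kcnj8 encodes the pore and Abcc9 the sulphonylurea receptor subunit of the ATP-sensitive potassium (KATP) channel of vascular mural cells. Kcnq5 encodes a voltage-gated potassium channel of the KCNQ family, and Cacna1c the pore of the L-type calcium channel. Rgs4 and Rgs5 are small RGS proteins, and Rgs6 belongs to the subfamily that pairs with the G protein subunit encoded by Gnb5.

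The genes form 2 neighbouring pairs and 3 single loci on GRCm38 (GENCODE vM21). Abcc9 (chr6:142587862-142702315) and Kcnj8 (chr6:142564837-142571614) both lie on the minus strand, with 16247 bases and no annotated gene between them. Rgs5 (chr1:169655501-169695813, plus strand) and Rgs4 (chr1:169741477-169747642, minus strand) are 45663 bases apart, also with no gene between. Kcnq5 (chr1:21398403-21961942, minus strand), Cacna1c (chr6:118587240-119196418, minus strand) and Rgs6 (chr12:82588292-83162056, plus strand) span 564, 609 and 574 kb, against 114 kb for Abcc9, 40.3 kb for Rgs5, 6.78 kb for Kcnj8 and 6.17 kb for Rgs4. No annotated gene overlaps Kcnj8, Rgs4 or Rgs5. Abcc9 overlaps 1 gene, Kcnq5 4, Cacna1c 3, among them the protein-coding Dcp1b, and Rgs6 7. Whether the counting used strand is not given in the sources used here, so reads from overlapping genes on the other strand cannot be told apart from those of Abcc9, Kcnq5, Cacna1c and Rgs6.

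The 250 bases before the RefSeq start on GRCm38.p6 are shown for the KATP pair, which stood furthest apart between the mural classes in the untreated and sham libraries, for Rgs5, which with Kcnj8 differed most between conditions, and for Cacna1c, whose level was the most even. Each is written on the strand of its gene. Capitals mark the letters CATTCC, the core site of TEAD factors, found on either strand.
Abcc9, chr6:142702275-142702524: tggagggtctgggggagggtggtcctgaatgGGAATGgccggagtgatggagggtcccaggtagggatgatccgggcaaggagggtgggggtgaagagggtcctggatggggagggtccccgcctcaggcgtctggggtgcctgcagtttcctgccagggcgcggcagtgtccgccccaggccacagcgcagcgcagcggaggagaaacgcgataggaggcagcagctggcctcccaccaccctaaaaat
Kcnj8, chr6:142571615-142571864: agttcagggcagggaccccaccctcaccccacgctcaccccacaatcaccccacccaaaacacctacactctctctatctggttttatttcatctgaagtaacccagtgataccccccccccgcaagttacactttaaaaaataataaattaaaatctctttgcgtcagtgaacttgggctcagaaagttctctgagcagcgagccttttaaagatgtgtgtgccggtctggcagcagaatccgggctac
Rgs5, chr1:169655251-169655500: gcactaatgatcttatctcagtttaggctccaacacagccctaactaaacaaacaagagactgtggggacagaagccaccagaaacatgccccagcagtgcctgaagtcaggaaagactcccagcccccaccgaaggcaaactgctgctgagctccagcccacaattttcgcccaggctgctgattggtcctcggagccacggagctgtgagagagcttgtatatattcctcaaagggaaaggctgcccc
Cacna1c, chr6:119196410-119196659: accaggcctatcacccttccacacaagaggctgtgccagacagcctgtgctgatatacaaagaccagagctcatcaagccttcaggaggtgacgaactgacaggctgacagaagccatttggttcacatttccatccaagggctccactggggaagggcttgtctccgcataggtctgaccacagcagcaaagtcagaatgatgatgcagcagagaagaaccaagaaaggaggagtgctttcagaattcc
All 7 genes had an entry, 10 in all because Kcnq5 and Cacna1c have several starts. The CArG box of serum response factor and the letters GTGGGAA of the Notch effector RBPJ, searched on both strands, were in none of the 10 windows, and they occurred in 1.47% and 5.42% of 32851 promoters of this length. CATTCC, in 12.6% of promoters, stood once before Abcc9 on the other strand, 219 bases before the start, and at 2 places before Rgs6. These matches describe letters in the windows and nothing more.

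The tables held 13707 to 15822 barcodes per library, and 14971579 UMIs (unique molecular identifiers, each counted as 1 captured RNA molecule) in the untreated, 14725864 in the sham and 9420030 in the denervated library. After filters and removal of doublets, 8935 to 10934 nuclei remained. Libraries shared 251 to 278 barcodes pairwise, at most 1.85% of the smaller library. Classes were rebuilt by clustering with the 7 genes withheld, and named from marker lists without them. Pericyte-like nuclei numbered 475, 1086 and 556 in the untreated, sham and denervated libraries, and smooth muscle-like nuclei 74, 326 and 42. The pericyte list (Pdgfrb, Notch3, Cspg4 and others) summed to 13208, 13966 and 11285 counts per 1000000 UMIs (CPM) in pericyte-like nuclei, and the smooth muscle list (Myh11, Acta2, Tagln and others) to 1436, 1482 and 1328 CPM. In smooth muscle-like nuclei the smooth muscle list reached 10351, 9439 and 9801 CPM and the pericyte list 10977, 11802 and 9173 CPM, so the pericyte list was high in both classes. The smooth muscle list differed by rule. Sub-clusters were named smooth muscle-like where its sum was at least 50% of the pericyte list, and pericyte-like where it was at most 20%. Nuclei between the classes, 36, 179 and 67, were kept apart as intermediate mural nuclei. The limits that set them apart were chosen after the sub-clusters had been seen, and 8.35% to 19.1% of mural nuclei stayed in neither class. The sorted floating layer sets the mixture of classes, so class sizes are not compared between libraries.

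All 7 genes were far higher in pericyte-like than in endothelial-like or brown adipocyte-like nuclei, in each of the 3 libraries. Abcc9 stood at 2159 CPM (interval 2015 to 2310) in the untreated, 2601 in the sham and 1828 in the denervated pericyte-like nuclei, and at 21.3, 51.4 and 24.8 CPM in endothelial-like nuclei. Kcnj8, the pore of the same channel, stood at 749, 717 and 164 CPM against 3.50, 12.5 and 3.20 CPM. Both KATP subunits were thus higher in pericyte-like than in endothelial-like nuclei of every library, and Kcnj8 was lowest in the denervated library. Kcnq5 reached 3880, 2679 and 3687 CPM against 21.3, 62.7 and 28.0 CPM in endothelial-like nuclei. Cacna1c reached 1312, 1440 and 1650 CPM against 8.16, 27.8 and 16.0 CPM. The level of Cacna1c was the most even over the libraries, and that of Kcnq5 was lowest in the sham library.

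Of the RGS genes, Rgs5 stood at 5506, 6507 and 2260 CPM in pericyte-like nuclei of the untreated, sham and denervated libraries, and at 323, 287 and 416 CPM in endothelial-like nuclei. Rgs4 stood at 352, 756 and 277 CPM against 2.92, 13.8 and 5.61 CPM, and Rgs6 at 1382, 1158 and 1710 CPM against 11.7, 24.1 and 15.2 CPM. Rgs5 was lowest in the denervated library, Rgs4 was highest in the sham library, and Rgs6 was highest in the denervated library. In brown adipocyte-like nuclei the members lay between 1.07 CPM (Kcnj8, denervated) and 83.8 CPM (Rgs5, sham). Because UMIs were not scaled by length, levels are compared between classes and libraries for 1 gene at a time and not between genes.

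**Figure D1:**
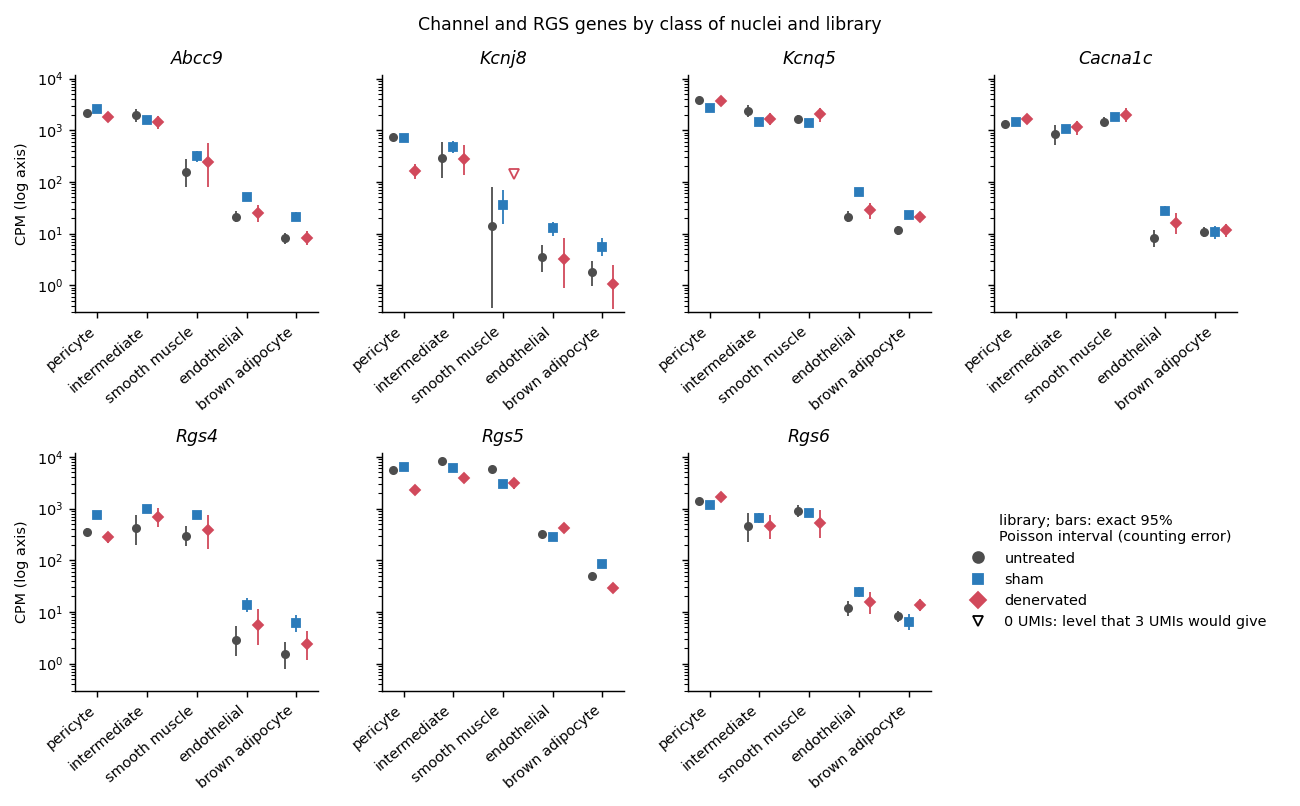
CPM (log axis) of the 7 genes in each class of nuclei, with 1 point per library and exact 95% Poisson intervals. Pericyte-like nuclei lie above endothelial-like and brown adipocyte-like nuclei for every gene and library, and the gap is narrowest for Rgs5, at 287 to 416 CPM in endothelial-like nuclei.

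The log2 ratio of pericyte-like over endothelial-like CPM was 5.66 to 6.66 for Abcc9, 5.68 to 7.74 for Kcnj8, 5.42 to 7.51 for Kcnq5, 5.69 to 7.33 for Cacna1c, 5.63 to 6.92 for Rgs4 and 5.58 to 6.89 for Rgs6. For Rgs5 it was 2.44 to 4.50. All 7 met the rule for a called gene in every library, a log2 ratio of 1 or more in either direction with a counting interval without 0. The median log2 ratio over all genes compared was 0.09, 0.15 and -0.14. The rule called 15.4%, 16.6% and 11.9% of all compared genes as higher in pericyte-like nuclei of the untreated, sham and denervated libraries. Against brown adipocyte-like nuclei the ratios of all 7 were 6.28 to 8.73 and again all were called in each library, where 16.6%, 20.6% and 14.1% of genes were. At a minimum of 500 detected genes, which left 32 denervated pericyte-like nuclei, the denervated calls of Kcnj8 against both classes and of Rgs4 against endothelial-like nuclei were lost. Genes with fewer than 20 UMIs over both classes were not compared, so a gene low in both could not enter these counts, and the 7 genes were proposed with earlier results of these data known.

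Free RNA gives UMIs in nuclei that do not make a gene, and its profile was taken from all barcodes, nuclei included. Over all barcodes, Abcc9 stood at 93.7 CPM in the untreated, 285 in the sham and 84.7 in the denervated library, and all 7 genes were highest in the sham library on this measure. The sham library also held the most mural nuclei (1648, against 599 untreated and 739 denervated). This measure therefore does not show whether free RNA differed between libraries. The endothelial-like levels of 6 of the 7 genes, all but Rgs5, were also highest in the sham library. Free RNA was estimated, with the profile of all barcodes and markers that a class should lack, at 19.8%, 21.5% and 48.0% of endothelial-like UMIs in the untreated, sham and denervated libraries. It would give 18.6, 61.2 and 40.7 CPM of Abcc9 in endothelial-like nuclei, beside the 21.3, 51.4 and 24.8 CPM measured. For Kcnj8, Kcnq5, Cacna1c, Rgs4 and Rgs6 the endothelial-like level was below this estimate in each library, so these levels cannot be told apart from background. The profile includes the mural nuclei themselves, so the estimate can be too high. For Rgs5 the estimate was 76.5, 184 and 113 CPM, below the measured 323, 287 and 416 CPM. With free RNA subtracted, all 7 genes were still called higher in pericyte-like than in endothelial-like or brown adipocyte-like nuclei of each library. That call used no counting interval and took a gene as higher also where nothing was left in the other class.

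Kcnq5 had at least 1 UMI in 82.3%, 70.7% and 64.2% of untreated, sham and denervated pericyte-like nuclei, Abcc9 in 69.9%, 73.9% and 48.0%, and Rgs5 in 66.9%, 87.0% and 34.0%. The median depth of these nuclei was 753, 747 and 365.5 UMIs, against 665, 511 and 389 in endothelial-like nuclei, so shares were also taken after thinning each nucleus to 300 UMIs, without 9, 12 and 133 shallower nuclei. At equal depth Abcc9 was detected in 44.0%, 49.2% and 41.1%, Kcnq5 in 59.9%, 48.3% and 58.6%, and Cacna1c in 29.4%, 31.7% and 33.6% of nuclei. For these 3 genes the intervals of the untreated and denervated shares overlapped at equal depth. Kcnj8 was detected in 14.6%, 17.4% and 4.96%, Rgs5 in 53.0%, 72.3% and 32.9%, and Rgs4 in 8.37%, 18.8% and 7.33% of thinned nuclei. Rgs6 was detected in 31.3%, 25.8% and 36.2%. The same thinned shares in endothelial-like nuclei were 0.568%, 1.31% and 0.741% for Abcc9, 0.114%, 0.334% and 0% for Kcnj8 and 6.61%, 5.47% and 8.32% for Rgs5, so detection in pericyte-like nuclei was far above this background.

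At least 1 of the 7 genes was seen in 95.5%, 96.9% and 93.4% of thinned pericyte-like nuclei and at least 2 in 76.4%, 83.4% and 67.8%. In endothelial-like nuclei, at the same 300 UMIs at least 1 was seen in 8.22%, 9.62% and 10.4% and at least 2 in 0.182%, 0.501% and 0.285%. The other mural classes were far nearer to pericyte-like nuclei. In smooth muscle-like nuclei at least 1 was seen in 87.7%, 83.7% and 78.1% and at least 2 in 49.3%, 48.3% and 50%. In intermediate mural nuclei at least 1 was seen in 90.3%, 91.5% and 85.5%. The KATP channel needs both of its subunits. Both RNAs were seen together in 26 of 466 untreated, 122 of 1074 sham and 9 of 423 denervated pericyte-like nuclei after thinning. Kcnj8 was seen in 12.3%, 23.1% and 5.36% of nuclei with an Abcc9 UMI, and in 13.7%, 16.1% and 3.14% of those without. The intervals of the paired shares overlap in the untreated (8.21% to 17.5% against 9.75% to 18.6%) and denervated libraries. In the sham library they just miss each other (19.6% to 27.0% against 13.1% to 19.4%). This thinning was a random draw of its own, apart from that of the single-gene shares above. The intervals leave out variation between draws, so the sham gap is unresolved.

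Pericyte-like and smooth muscle-like nuclei differed most in the KATP subunits in the untreated and sham libraries. In the denervated library this depended on how mural nuclei were divided. In smooth muscle-like nuclei Abcc9 stood at 157, 317 and 241 CPM (11, 72 and 5 UMIs) in the untreated, sham and denervated libraries, every value below the pericyte-like ones. The log2 ratio of pericyte-like over smooth muscle-like was 3.78 (interval 2.94 to 4.79), 3.03 (2.70 to 3.39) and 2.92 (1.69 to 4.55). Kcnj8 had 1, 8 and 0 UMIs in smooth muscle-like nuclei. Its ratio was 5.72 (3.23 to 11.0) in the untreated and 4.35 (3.36 to 5.56) in the sham library. The untreated ratio was 3.12 at clustering resolution 1 (6 smooth muscle-like UMIs) and its interval held 0 at 300 to 600 UMIs per nucleus (28 against 0 UMIs), and the sham ratio was 2.33 with nuclei picked one by one (23 UMIs). In the denervated library the 0 UMIs allow up to 145 CPM (3 counts) in smooth muscle-like nuclei, or 178 CPM by the exact 95% Poisson limit, against 164 CPM in pericyte-like nuclei. The counting interval of that ratio held 0, so no difference in Kcnj8 was detectable there.

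Kcnq5 had a log2 ratio of 1.23 (0.96 to 1.52) in the untreated library, which met the call rule, and of 0.95 (0.78 to 1.12) in the sham and 0.86 (0.41 to 1.35) in the denervated library, which did not, with 1652, 1389 and 2028 CPM in smooth muscle-like nuclei. Cacna1c was at 1466, 1790 and 1980 CPM in smooth muscle-like nuclei. Its ratios of -0.16, -0.31 (-0.48 to -0.15) and -0.26 were all small and on the smooth muscle side, and in the sham library alone the interval left out 0. At 300 to 600 UMIs per nucleus the ratio of Cacna1c in the untreated library was -1.12 and met the call rule. Over the alternative settings it ran up to 0.28 in the untreated and from -0.84 to 0.85 in the denervated library. Its side was thus not settled in these libraries, and in the sham library it stayed below 0 (-0.41 to -0.04).

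The RGS genes had no common order between the mural classes. Rgs4 was at 299, 754 and 386 CPM in smooth muscle-like nuclei, with ratios of 0.24, 0.00 and -0.48. Rgs6 was at 897, 833 and 531 CPM, with ratios of 0.62, 0.47 and 1.69 (0.83 to 2.70), all above 0. Over the alternative settings the sham ratio of Rgs6 ran from -0.09 to 0.95. Rgs5 was at 5723, 2989 and 3090 CPM, with ratios of -0.06, 1.12 (1.01 to 1.24) and -0.45 (-0.83 to -0.05). The denervated ratio of Rgs5 did not meet the call rule, and it was 0.21 at a minimum of 500 genes and 0.11 at 300 to 600 UMIs. By the call rule 3 members were higher in pericyte-like nuclei in the untreated library (Abcc9, Kcnj8 and Kcnq5), where 8.61% of genes were, 3 in the sham library (Abcc9, Kcnj8 and Rgs5), against 7.39%, and 2 in the denervated library (Abcc9 and Rgs6), against 5.31%. None was called lower, against 7.17%, 6.65% and 7.03% of genes. Against endothelial-like nuclei, 6, 7 and 5 members were called higher in smooth muscle-like nuclei of the untreated, sham and denervated libraries, beside 9.78%, 14.1% and 5.37% of genes. These were all the members compared, because Kcnj8 in the untreated library and Kcnj8 and Rgs4 in the denervated library had too few UMIs. The 42 denervated smooth muscle-like nuclei set the width of that library's intervals. Abcc9 was called in all 3 libraries, and its call in the denervated library was lost (log2 ratio 0.33) when mural nuclei were sub-clustered per library. Kcnq5 was called in all 3 libraries in that setting (1.29, 1.10 and 1.33), at a minimum of 500 genes and with nuclei picked one by one. The denervated call of Rgs6 was lost at 500 genes (1.62) and with nuclei picked one by one (0.92), and the sham call of Rgs5 with doublets kept (0.95). With mural nuclei sub-clustered per library, which gave 551 pericyte-like and 92 smooth muscle-like denervated nuclei, Kcnj8 had 28 and 20 UMIs (-1.55, interval -2.43 to -0.64), and Kcnj8, Rgs4 (-1.88) and Rgs5 (-2.44) were called lower in pericyte-like nuclei.

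**Figure D2:**
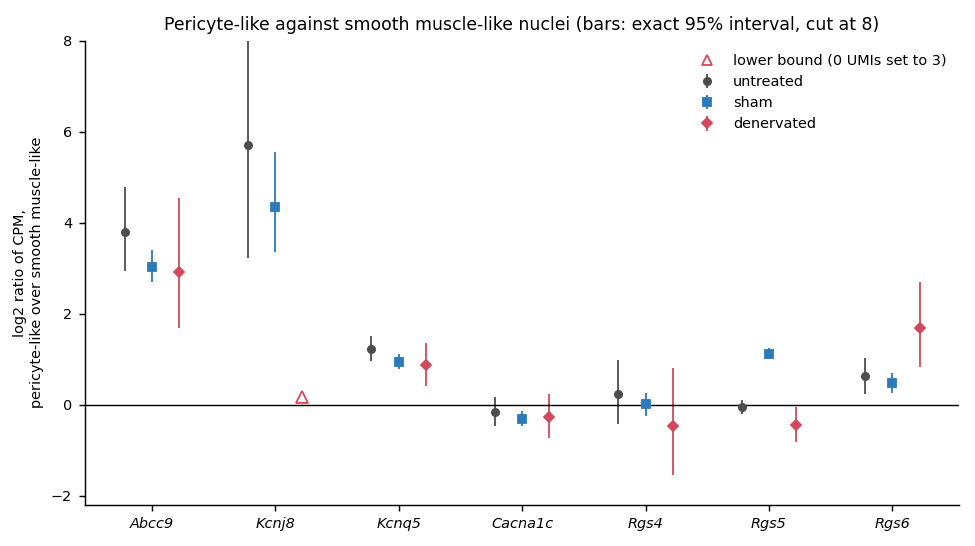
Log2 ratio of pericyte-like over smooth muscle-like CPM for each gene and library, with exact 95% counting intervals. Abcc9 and Kcnj8 lie furthest to the pericyte-like side in the untreated and sham libraries, the open triangle for Kcnj8 in the denervated library is a bound from 0 UMIs whose interval holds 0, Cacna1c lies just below 0 in each library, and Rgs5 lies at 1.12 in the sham library and just below 0 in the others.

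In intermediate mural nuclei, led by Acta2 and Tagln with the immediate early genes Fos, Fosb and Egr1, Abcc9 stood at 1952, 1601 and 1443 CPM in the untreated, sham and denervated libraries and Kcnj8 at 291, 480 and 283 CPM. Both subunits were below their pericyte-like levels in the untreated and sham libraries and above their smooth muscle-like levels in every library. For untreated Abcc9 (47 UMIs, 1434 to 2596 CPM) the interval overlapped the pericyte-like one of 2015 to 2310 CPM. For denervated Kcnj8 (10 UMIs, 136 to 520 CPM) it overlapped the smooth muscle-like limit of 178 CPM, so these orders are unresolved. In the remaining comparisons the intervals did not overlap. Rgs5 stood at 8307, 6016 and 3904 CPM there. Immediate early genes also respond to tissue dissociation, and their part in these levels was not tested.

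The level of Rgs5 varied between endothelial-like clusters of 1 library. In the denervated library a cluster of 1175 nuclei led by Aqp1, Kdr and Cd34 had 773 CPM and one of 1274 nuclei led by Cyyr1 and Ablim3 had 54.9 CPM. Their median depths were 467 and 317 UMIs, and the part of depth in this difference was not tested. In the untreated library the 5 clusters ran from 84.0 CPM (2 UMIs) to 898 CPM, and in the sham library the 4 clusters from 163 to 619 CPM. In the 32, 57 and 81 fibroblast-like nuclei Cacna1c was at 217, 193 and 237 CPM (7, 9 and 13 UMIs). In the 26, 129 and 45 Schwann-like nuclei Kcnq5 was at 96.7, 124 and 495 CPM (2, 10 and 14 UMIs). The Schwann list summed to 14556, 11433 and 4421 CPM there and the fibroblast list to 5271, 2707 and 5163 CPM. The denervated class was thus the least Schwann-like and may be mixed.

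The other genes of these families, taken from gene lists of 7 families and pathways, were not uniformly high in pericyte-like nuclei. Against endothelial-like nuclei, 8.08% of 8974 genes compared in all 3 libraries were called higher in each and 8.65% lower in each. Among the other KCNQ genes and their partners, Kcnq1 was called higher in each library. It stood at 278, 85.0 and 318 CPM in pericyte-like nuclei of the untreated, sham and denervated libraries. The other KATP genes, Kcnj11 and Abcc8, which form the channel of pancreatic beta cells, had too few UMIs to compare. Among the other potassium channels, Kcnd3 was called higher and Kcnk6 lower.

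Of the other voltage-gated calcium channel genes, 3 of the 4 compared were called higher, the beta subunits Cacnb2 and Cacnb4 and the alpha-2-delta subunit Cacna2d1, which pair with pores such as that of Cacna1c. Among genes of calcium stores and cation channels, Trpc1, Trpc6, Ano1 and Slc8a1 were called higher and Itpr2, Atp2a3 and Orai1 lower. Trpc6, a receptor-operated cation channel, stood at 399, 256 and 391 CPM in pericyte-like nuclei, and Ano1, a calcium-activated chloride channel, at 1073, 1648 and 1164 CPM. Of 14 receptor and G protein genes, the endothelin receptor Ednra, the angiotensin receptor Agtr1a, Gnao1, Prkg1 and Pde5a were called higher, and Adra1a and Plcb1 lower. Ednra stood at 509, 733 and 887 CPM and Agtr1a at 996, 670 and 823 CPM. Of the 17 other RGS genes, 5 could be compared. None of those 5 was called higher in every library and Rgs2 was called lower. Against brown adipocyte-like nuclei, Rgs3 and Rgs12 were called higher in every library and Rgs2 and Rgs7 lower, of 6 compared. Of 11398 genes compared in this way, 10.2% were called higher in each library and 9.19% lower.

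Set against smooth muscle-like nuclei, 2.43% of 2836 genes were called higher in pericyte-like nuclei in all 3 libraries and 2.29% lower. Among the listed genes, Kcnq1, Cacnb4 and Agtr1a were called higher in each library and Kcnk3, Cacnb2 and Atp2b4 lower. Kcnk3, a leak potassium channel, stood at 165, 268 and 123 CPM in pericyte-like and 1452, 1054 and 1304 CPM in smooth muscle-like nuclei. Cacnb2 stood at 136, 87.4 and 164 CPM against 712, 569 and 917 CPM. Of the calcium channel beta subunits, Cacnb4 was thus higher in pericyte-like and Cacnb2 in smooth muscle-like nuclei.

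The genes whose level was most like that of each member over 22 points of class and library were found by Pearson's r of log2(CPM + 10), among 5887 genes. The points share libraries and depth, so r is a description. Lin7a and the angiotensin receptor gene Agtr1a were among the 3 nearest Abcc9 (r = 0.94 and 0.93), and Gipr and the pericyte marker Vtn were nearest Kcnj8 (both 0.93). Nearest to Kcnq5 were the Notch target Heyl (0.93) and Postn (0.91), both on the pericyte list. Nearest to Cacna1c were Arhgef17 (0.97) and Rem1 (0.95), which encodes a GTPase that inhibits voltage-gated calcium channels. Among the nearest to Rgs4 was Olfr558 (0.95), to Rgs5 Mfge8 (0.94), and to Rgs6 Cox4i2 (0.96) and Mrvi1 (0.96). Among members, Abcc9 and Rgs6 were the most alike pair (0.91) and Kcnj8 and Cacna1c the least (0.64).

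In pericyte-like nuclei the conditions differed most in Kcnj8 and Rgs5. Kcnj8 had 291 UMIs in the untreated, 607 in the sham and 36 in the denervated library, which gave the 749, 717 and 164 CPM above. The log2 ratio of denervated over untreated was -2.19 (-2.74 to -1.69) and of denervated over sham -2.13 (-2.66 to -1.65), while sham over untreated was -0.06. The denervated library was thus low and the other two lay together. Rgs5 had 2140, 5509 and 497 UMIs, with ratios of -1.28 (-1.43 to -1.14) for denervated over untreated, -1.53 (-1.66 to -1.39) for denervated over sham and 0.24 for sham over untreated. These comparisons share libraries, each denervated value serving in both.

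Abcc9, the partner of Kcnj8, differed far less, by -0.24 (-0.42 to -0.07) for denervated over untreated and -0.51 for denervated over sham. Kcnq5 differed by -0.07 and 0.46, Cacna1c by 0.33 (0.13 to 0.53) and 0.20, and Rgs6 by 0.31 (0.11 to 0.50) and 0.56. None of these 4 reached a log2 ratio of 1. Rgs4 had 137, 640 and 61 UMIs and stood apart in the sham library, with ratios of 1.10 (0.83 to 1.38) for sham over untreated, -0.35 (-0.81 to 0.10) for denervated over untreated and -1.45 (-1.85 to -1.07) for denervated over sham. Kcnq5 was lower in the sham library, by -0.53 (-0.63 to -0.44) against untreated. By the call rule, 2 members were lower in denervated than untreated nuclei, where 5.66% of genes were, 3 were lower in denervated than sham nuclei (8.57%), and 1 was higher in sham than untreated nuclei (4.39%). No member was called the other way in these comparisons, where 3.89%, 5.71% and 3.11% of genes were. Among the genes compared, Kcnj8 lay at percentile 0.722 from the lowest ratio of denervated over untreated and Rgs5 at percentile 4.53.

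**Figure D3:**
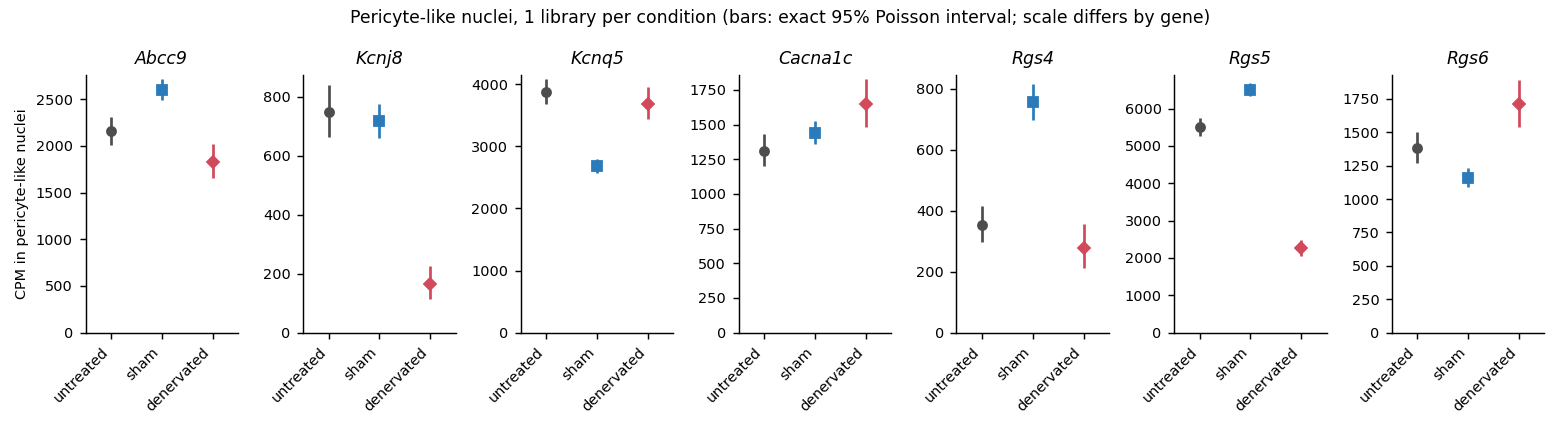
CPM in pericyte-like nuclei of the untreated, sham and denervated library, 1 point per library with its exact 95% Poisson interval and a scale of its own for each gene. Kcnj8 (164 in the denervated library) and Rgs5 (2260) are low after denervation, Rgs4 (756) is high in the sham library, and the others differ by less.

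Depth moved with these differences. Of the denervated pericyte-like nuclei, 133 had under 300 UMIs, 379 had 300 to 600 and 44 over 600, against 9, 155 and 311 untreated and 12, 302 and 772 sham nuclei. Rgs5 was at 2647 CPM at 300 to 600 UMIs and 6201 CPM over 600 UMIs in the untreated library, and at 1988 and 4755 CPM in the denervated library. In the sham library it was at 5763 and 6653 CPM. Under 300 UMIs it was at 2843, 8381 and 1213 CPM in the untreated, sham and denervated libraries, on 7, 28 and 44 UMIs. At 300 to 600 UMIs the log2 ratio of Rgs5 for denervated over untreated was -0.41, which did not meet the call rule, that for denervated over sham was -1.54 and that for sham over untreated 1.12. How much of the Rgs5 difference depth accounts for was not tested. With at least 500 detected genes per nucleus, which left 283, 709 and 32 pericyte-like nuclei, the ratio of denervated over untreated was -0.45 for Rgs5 and -1.22 for Kcnj8, the latter still called. Kcnj8 stood at 380, 591 and 145 CPM at 300 to 600 UMIs and at 832, 742 and 346 CPM over 600 UMIs in the untreated, sham and denervated libraries, and the denervated library was lowest in both ranges. The denervated values there rest on 22 and 11 UMIs. Abcc9 at 300 to 600 UMIs was at 2185, 2342 and 1823 CPM.

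**Figure D4:**
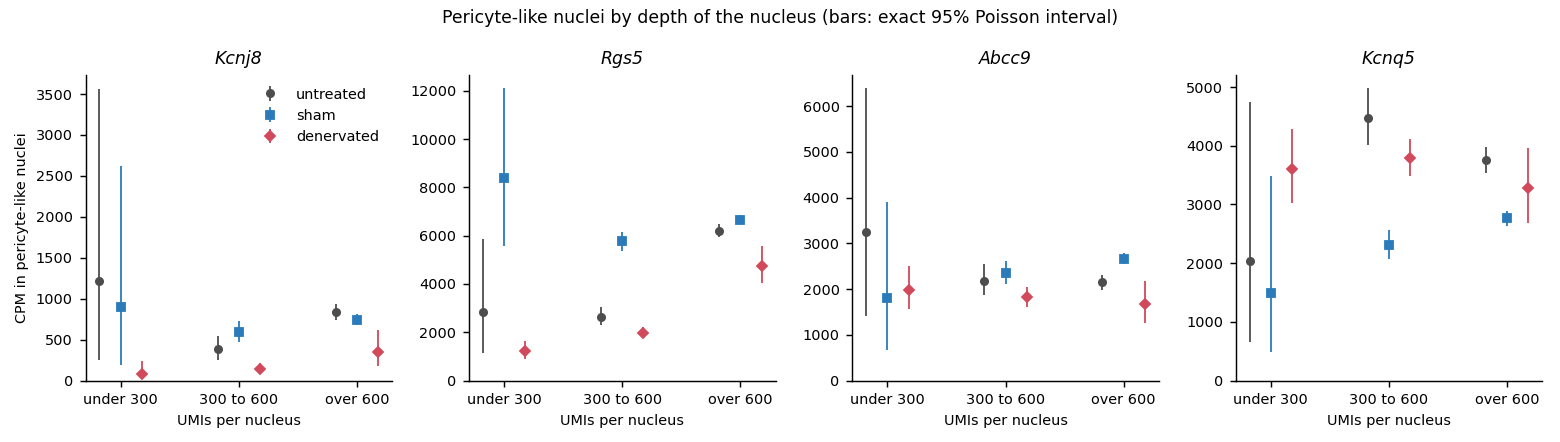
CPM of Kcnj8, Rgs5, Abcc9 and Kcnq5 in pericyte-like nuclei, split by UMIs per nucleus and library, with exact 95% Poisson intervals. Kcnj8 is lowest in the denervated library at each depth, with 3 UMIs per library under 300 UMIs per nucleus, and Rgs5 is higher over 600 than at 300 to 600 UMIs in each library, most in the untreated and denervated ones.

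Gene span moved with the conditions as well. Over all genes compared in pericyte-like nuclei, the median log2 ratio of denervated over untreated was -0.21 for genes under 10 kb, -0.21 at 10 to 30 kb, -0.05 at 30 to 100 kb, 0.15 at 100 to 300 kb and 0.29 over 300 kb, and that of denervated over sham ran from -0.48 to 0.58. Genes over 100 kb took 31.0%, 28.0% and 34.9% of pericyte-like UMIs in the untreated, sham and denervated libraries. The 3 members over 300 kb had ratios of denervated over untreated of -0.07 (Kcnq5), 0.33 (Cacna1c) and 0.31 (Rgs6), and the 4 shorter ones were at -0.24 (Abcc9), -0.35 (Rgs4), -1.28 (Rgs5) and -2.19 (Kcnj8). Measured from the median of genes of like span, the ratio of denervated over untreated was -1.98 for Kcnj8 and -1.23 for Rgs5, both still called, and that of denervated over sham was -1.65 and -1.52. Rgs4 then fell short of the call rule for denervated over sham (-0.97) and for sham over untreated (0.90). Mitochondrial genes took 3.18%, 5.18% and 1.84% of the UMIs of these nuclei.

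**Figure D5:**
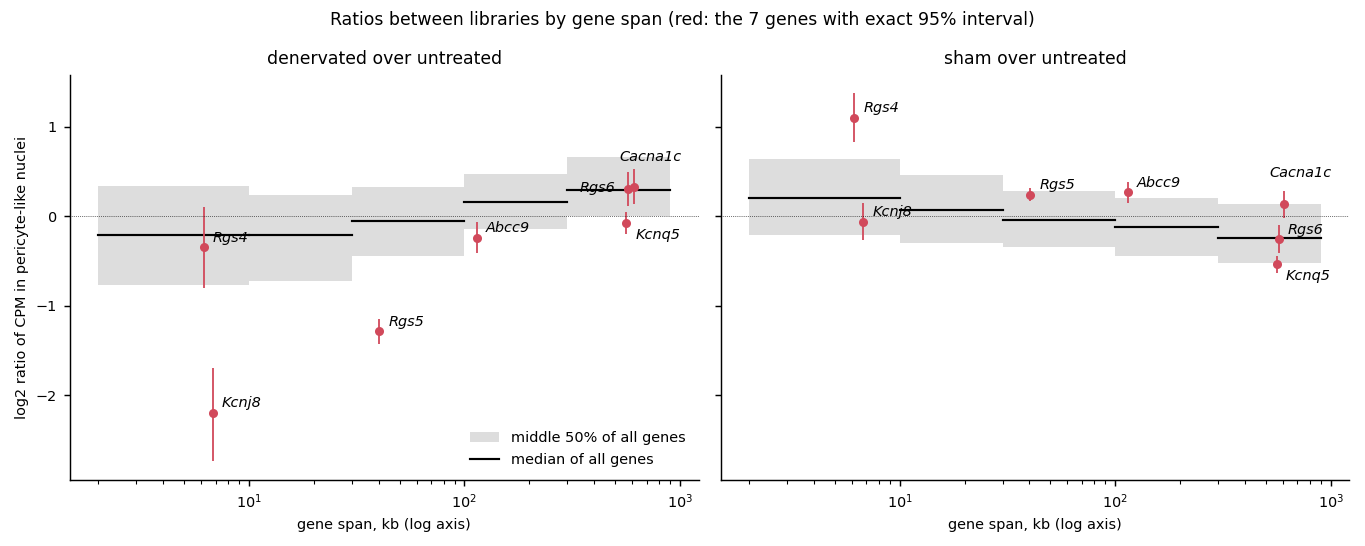
Log2 ratio in pericyte-like nuclei against gene span in kb (log axis), for denervated over untreated and sham over untreated, with the 7 genes as red points with exact 95% intervals, the median of all compared genes of each span class as a line and their quartiles in grey. The line climbs with span for denervated over untreated (-0.21 to 0.29), and Kcnj8 and Rgs5 lie below it.

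Pericyte markers and traces of other cells were measured beside these differences. The pericyte list was somewhat lower in denervated pericyte-like nuclei, with a median log2 ratio to untreated of -0.30 against -0.04 over all genes. Of 17 compared markers, 4 were called lower than untreated (Steap4, Ndufa4l2, Heyl and Postn) and 1 higher (Tbx3os1), where 5.66% and 3.89% of all genes were. The same list was used to name the classes, and the markers were not compared at equal depth. Of the other genes on the list, Pdgfrb had a log2 ratio of 0.24 and the Notch receptor gene Notch3 one of -0.20. Against sham, Steap4, Ndufa4l2, Vtn and Postn were called lower and Tbx3os1 higher, where 8.57% and 5.71% of all genes were. The brown adipocyte list summed to 1258, 1032 and 1837 CPM and the endothelial list to 641, 643 and 777 CPM in untreated, sham and denervated pericyte-like nuclei, highest in the denervated library for both. Their part in the differences of the 7 genes was not tested.

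Of the other channel and signalling genes, the following were called between conditions in pericyte-like nuclei. For denervated over untreated, 1 of 37 compared was called higher (Plcb1, with 20 and 16 UMIs) and 1 lower (the vasopressin receptor Avpr1a, with 2 and 22 UMIs), where 3.89% and 5.66% of all genes were. For denervated over sham, 4 of 45 were called higher (Kcnq1, Cacnb4, Itpr2 and Rgs7) and 4 lower (Kcnj2, Kcnd3, Kcnk3 and Avpr1a), against 5.71% and 8.57% of all genes. Kcnq1 was at the levels above and Kcnd3 at 95.2, 287 and 123 CPM, so for both the sham library stood apart from the others. For sham over untreated, 3 of 47 were called higher (Kcnj2, Kcnd3 and Trpm4) and 3 lower (Kcnq1, Cacnb4 and Rgs7), against 4.39% and 3.11%.

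In smooth muscle-like nuclei the few UMIs left most of these differences unresolved. Rgs5 had log2 ratios of -0.89 for denervated over untreated and -0.94 for sham over untreated, which did not meet the call rule, and the median depth of these nuclei was 910, 667 and 382 UMIs in the untreated, sham and denervated libraries. Rgs4 and Abcc9 were higher in the sham than in the untreated library (1.33 and 1.02), the 2 members called, against 4.44% of genes. With free RNA subtracted, Abcc9 stood at 144 CPM in the untreated and 275 CPM in the sham library, a ratio under the limit of the call rule. Kcnj8, with 1, 8 and 0 UMIs, had too few to compare.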

How the data were processed

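Nuclei of BAT were processed on the BD Rhapsody whole transcriptome system. The authors deposited raw counts of UMIs for every nucleus and gene. For the untreated and denervated libraries the file headers give the BD Rhapsody pipeline, a mouse genome (GRCm38, GENCODE vM19) and UMI error correction. The sham table has no header, and the labels' processing notes name Seurat 4.0.6 and the build GRCh38. A difference in processing between the sham and the other tables cannot be told apart from the sham operation.

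Nuclei entered with 200 or more detected genes and no more than 50% of UMIs from mitochondrial genes. Doublets were removed where a pair of exclusive marker lists each had 3 or more UMIs and the smaller sum reached 25% of the larger (1790, 3093 and 1527 in the untreated, sham and denervated libraries). Each library was clustered from log2 of counts per 10000 plus 1, with 2000 variable genes, 30 principal components and 20 neighbours, by the Louvain method (resolution 0.5). The 7 genes were withheld from doublet calls, clustering and naming. Clusters were named where at least 3 markers had at least 3 UMIs and 2-fold or more the CPM of the lower quartile of clusters. Mural nuclei of the libraries were then sub-clustered together. These class names were rebuilt here and can differ from those of the study.

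UMIs were summed per class as CPM, with exact 95% Poisson intervals. Shares have Clopper-Pearson and ratios conditional binomial intervals. All cover counting error only, over genes with at least 20 UMIs in both groups together. A gene was called at a log2 ratio of 1 or more in either direction and an interval without 0. With 1 library per condition no p-value is given, and 3 pairs of classes cannot go below a two-sided exact permutation p of 0.25. The intervals and the recovery of classes were tried on counts simulated from the model that the intervals assume and from the named class profiles. These had no free RNA, doublets or variation between nuclei of a class, so they check the calculation and not its fit to these data. Listed genes were named if called the same way in all 3 libraries against endothelial-like nuclei, at most 5 per list in each direction, and those named for other comparisons, like the markers, were chosen after their values were seen. For each gene the 3 most alike genes were sought among those with at least 50 UMIs in pericyte-like nuclei. Some genes of these lists are not reported here. The members and lists were chosen with earlier results of these data known. Promoters are from RefSeq (GRCm38.p6). Python 3.11.15, scipy 1.17.1, scikit-learn 1.9.0 and python-igraph 0.11.9 were used.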

Additional observations from a re-analysis of the deposited data

Results flagged for a closer look

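The log2 ratio of a gene under 1 contrast pointed in opposite directions in the classes or libraries named here. With 1 library per condition none of these differences was tested. For Rgs5, the ratio of pericyte-like over smooth muscle-like was 1.12 in the sham and -0.45 in the denervated library, a difference of 1.57. The denervated ratio was 0.21 at a minimum of 500 genes and 0.11 at 300 to 600 UMIs, so the opposite direction was not found in those settings. For denervated over untreated, Rgs5 was at 0.36 in endothelial-like nuclei against -1.28 in pericyte-like nuclei (difference 1.65) and -0.89 in smooth muscle-like nuclei (1.25). For denervated over sham it was at 0.54 in endothelial-like and -1.53 in pericyte-like nuclei (2.06). The pericyte-like ratio to untreated was -0.41 at 300 to 600 UMIs. It was not called there, at a minimum of 500 genes or with nuclei picked one by one. That to sham was -0.47 and not called at a minimum of 500 genes. The endothelial-like ratios were not recomputed in these settings. For sham over untreated, Rgs5 was at 0.24 in pericyte-like, -0.94 in smooth muscle-like, -0.17 in endothelial-like and 0.78 in brown adipocyte-like nuclei. These gave differences of 1.18 between pericyte-like and smooth muscle-like, 0.41 between pericyte-like and endothelial-like, and 1.72 between brown adipocyte-like and smooth muscle-like nuclei.

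Kcnq5 for denervated over sham was at 0.46 in pericyte-like and 0.55 in smooth muscle-like nuclei against -1.16 in endothelial-like nuclei, differences of 1.62 and 1.71. For sham over untreated it was at -0.53 in pericyte-like nuclei against 1.56 in endothelial-like (2.09) and 1.02 in brown adipocyte-like nuclei (1.55). Cacna1c for denervated over sham was at 0.20 in pericyte-like and -0.80 in endothelial-like nuclei (0.994). Rgs6 for sham over untreated was at 1.05 in endothelial-like and -0.26 in pericyte-like nuclei (1.31). Over all barcodes Kcnq5 was at 166, 324 and 169 CPM, Cacna1c at 67.8, 199 and 85.8 CPM and Rgs6 at 63.7, 140 and 80.7 CPM in the untreated, sham and denervated libraries, highest in the sham library. That measure includes the mural nuclei, which were most numerous in the sham library. The endothelial-like level of these 3 genes was below the estimate for free RNA in each library, as was that of Kcnq5 in brown adipocyte-like nuclei of the untreated and sham libraries, so these differences between classes cannot be told apart from free RNA. The endothelial-like level of Rgs5 stood 247, 102 and 303 CPM above the estimate.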

How the results depend on the processing

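Results were recomputed under 11 planned settings and 5 added after the data had been seen: mural nuclei sub-clustered per library, intermediate nuclei counted as pericyte-like, nuclei with 300 to 600 UMIs, and ratios centred on the median of all genes or of genes of like span. No called ratio of pericyte-like nuclei over another class or between conditions in pericyte-like nuclei changed sign where it had a value. Ratios of smooth muscle-like nuclei over other classes or between conditions were not recomputed, apart from Abcc9 for sham over untreated with free RNA subtracted. Ratios that were not called did change sign. Among them were Rgs4 (-0.61 to 0.57) and Cacna1c (-0.31 to 0.43) for denervated over untreated and Cacna1c for denervated over sham (-0.53 to 0.29). For pericyte-like over smooth muscle-like nuclei, so did Cacna1c in the untreated (-1.12 to 0.28) and denervated (-0.84 to 0.85) libraries and Rgs6 in the sham library. Kcnj8 was called lower in denervated pericyte-like nuclei in 14 of 14 settings with a call, from -2.43 to -1.22 against untreated and from -2.42 to -1.02 against sham. The count of members lower in denervated than untreated nuclei was 1 instead of 2 at a minimum of 500 detected genes (Rgs5 at -0.45), with nuclei picked one by one (-0.91) and at 300 to 600 UMIs (-0.41). Against sham it was 1 instead of 3 at a minimum of 500 genes (Rgs5 at -0.47, Rgs4 at -0.35), a setting that left 32 denervated pericyte-like nuclei. The count higher in sham than untreated nuclei was 0 instead of 1 at 500 genes (Rgs4 at 0.92), with doublets kept (0.99) and centred on like span (0.90), and 2 at 300 to 600 UMIs. Against smooth muscle-like nuclei, 3 members instead of 0 (Kcnj8, Rgs4 and Rgs5) were lower in the denervated library with mural nuclei sub-clustered per library, and 1 (Cacna1c) in the untreated library at 300 to 600 UMIs. The cause of these changes was not tested. Conditions could not be paired, with 1 library each. Classes are paired within the 3 libraries, and no paired test of them was made. Kcnj8 in denervated and smooth muscle-like nuclei rests on few UMIs.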

Other observations

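At least 1 Kcnq5 UMI was found in 17.8% of the 45 denervated Schwann-like nuclei, where the fibroblast list stood above the Schwann list. Kcnq5 was at 43.8 CPM (26 UMIs in 707 nuclei) in a cluster named white adipocyte-like, a name that the rule gave only in the denervated library. Its white adipocyte list summed to 11096 CPM and its brown adipocyte list to 9870 CPM. In sham brown adipocyte-like nuclei the white adipocyte list summed to 12112 CPM. The study reports white adipocytes in untreated BAT, so the name does not make this class particular to denervation. These values have no replicate.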
